A study of Mus musculus with 3 samples.

Results

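The 9 T lineage transcription factors described here are Tcf7, Lef1, Bcl11b, Gata3, Tbx21, Eomes, Foxp3, Runx3 and Zbtb7b. They were chosen by gene symbol, and each of the 9 matched 1 row of a count table of 48709 mouse genes. The table comes from total RNA sequencing of sorted mouse lung cells. Its 3 libraries form a single group, labelled wild type (WT), and lung smooth muscle is the labelled cell type. The source animals of all 3 libraries were transgenic for a smooth muscle actin creERT2, a Cre recombinase that tamoxifen activates in cells using that promoter, and for the red fluorescent protein tdTomato. From 8 weeks of age they received tamoxifen intraperitoneally every day for 10 days, 75 mg/kg each time, and 2 months after that cells were sorted from enzyme-digested lung. The labels name neither the gate of the sort nor the animal behind each library, so the spread over the 3 libraries may be technical. There was no other group, and what follows compares genes within libraries and libraries with each other.

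T cells, innate lymphoid cells and natural killer (NK) cells are specified by a small set of DNA-binding proteins. TCF1, LEF1 and BCL11B act early and hold T cell identity, and TCF1 and LEF1 remain high in naive T cells. ThPOK and RUNX3 separate the CD4 from the CD8 lineage, and T-bet, EOMES, GATA3 and FOXP3 direct type 1, cytotoxic, type 2 and regulatory programs. Smooth muscle is not known for this set, and in lung these genes are used to identify lymphocytes.

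Depth was 16877297 to 18896263 counts per library, where CPM stands for counts per 1000000 counts of a library. A gene without counts could still have a level of up to 3 counts, or 0.159 to 0.178 CPM, a limit that covers counting error only. The labelled cell type was checked with 10 contractile markers, whose CPM summed to 88.3, 119 and 88.6 in WT libraries 1, 2 and 3. The summed CPM of 14 genes of the T cell receptor complex and T cell surface was 1629, 1648 and 1320, that of 9 NK cell markers 242, 256 and 451, and that of 9 B cell markers 676, 1040 and 1403. Lists of other cell types also exceeded the contractile sum. They summed to 414, 997 and 934 for 9 fibroblast markers and 767, 437 and 576 for 9 endothelial markers. The sums were 933, 332 and 429 for 11 myeloid markers and 14875, 2991 and 8056 for 10 epithelial markers, the last carried largely by Scgb1a1. A mean CPM of 10 or more was reached by 5 of 10 contractile markers, against 14 of 14 T cell genes, and calponin, Cnn1, had 0 counts in library 1. In bulk RNA, fewer cells of a type and less RNA per cell cannot be told apart.

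Short stretches upstream of 4 factors are shown. By CPM, Lef1 and Bcl11b were lowest and Tbx21 and Eomes highest in library 3, as described further on. Tcf7, also lowest there, is not shown. The stretches come from RefSeq on GRCm38.p6, end before the annotated start, and run 5′ to 3′ on the gene's strand. Capitals mark core letters of ETS sites (GGAAGT), of the TATA box (TATAA) and of the CCAAT box, each on either strand.
Lef1, chr3:131110073-131110296, plus strand: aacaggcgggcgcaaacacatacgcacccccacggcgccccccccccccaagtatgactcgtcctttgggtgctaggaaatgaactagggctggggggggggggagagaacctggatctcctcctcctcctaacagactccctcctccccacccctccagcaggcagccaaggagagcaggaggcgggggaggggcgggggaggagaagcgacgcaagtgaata
Bcl11b, chr12:108003603-108003664, minus strand: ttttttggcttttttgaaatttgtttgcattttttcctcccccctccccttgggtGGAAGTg
Tbx21, chr11:97115332-97115581, minus strand: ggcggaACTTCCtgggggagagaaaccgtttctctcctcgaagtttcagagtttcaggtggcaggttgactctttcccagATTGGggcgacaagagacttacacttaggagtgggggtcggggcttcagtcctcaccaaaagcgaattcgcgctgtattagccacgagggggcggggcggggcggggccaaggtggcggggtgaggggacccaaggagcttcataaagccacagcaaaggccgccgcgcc
Eomes, chr9:118477939-118478188, plus strand: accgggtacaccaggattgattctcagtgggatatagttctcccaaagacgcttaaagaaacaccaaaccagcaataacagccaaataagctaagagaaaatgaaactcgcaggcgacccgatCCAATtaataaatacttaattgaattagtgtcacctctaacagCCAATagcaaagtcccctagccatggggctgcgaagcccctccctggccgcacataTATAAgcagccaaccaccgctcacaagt

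In the 250 bases before a start, searched on both strands for all 9 factors, GGAAGT was found in 3 of 9 windows, CCAAT in 5 and TATAA in 2. The shares over all 32851 RefSeq windows of that length were 19.7%, 33.9% and 22.8%. The letters CTTTGA of TCF and LEF factors, GGTGTG of T-box factors and TGTGGT of RUNX factors were each in 1 of 9 windows, against 13.8%, 16.3% and 14.1% of all windows. AGATAA, read by GATA factors, was in 0 of 9 windows and in 9.99% of all. The start used was the RefSeq start nearest the start of the gene in the count table. It lay 11434 bases inside the gene for Gata3, 1398 for Zbtb7b and 188 for Bcl11b, so matches in these windows can come from inside the gene. No motif contains another, although neighbouring matches can share bases. These are matches of letters, and nothing about binding was measured.

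All 9 factors were detected in each of the 3 libraries, and levels spanned a wide range. A mean CPM of 100 or more was reached by 3 of the 9 and one of 10 or more by 8, against 5.89% and 35.8% of 22005 nuclear protein-coding genes. Their summed CPM was 1191, 1269 and 935 in WT libraries 1, 2 and 3. Tcf7, Lef1 and Bcl11b together made up 80.4% ± 5.55 of the counts of the 9 (SD, n = 3).

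**Figure D1:**
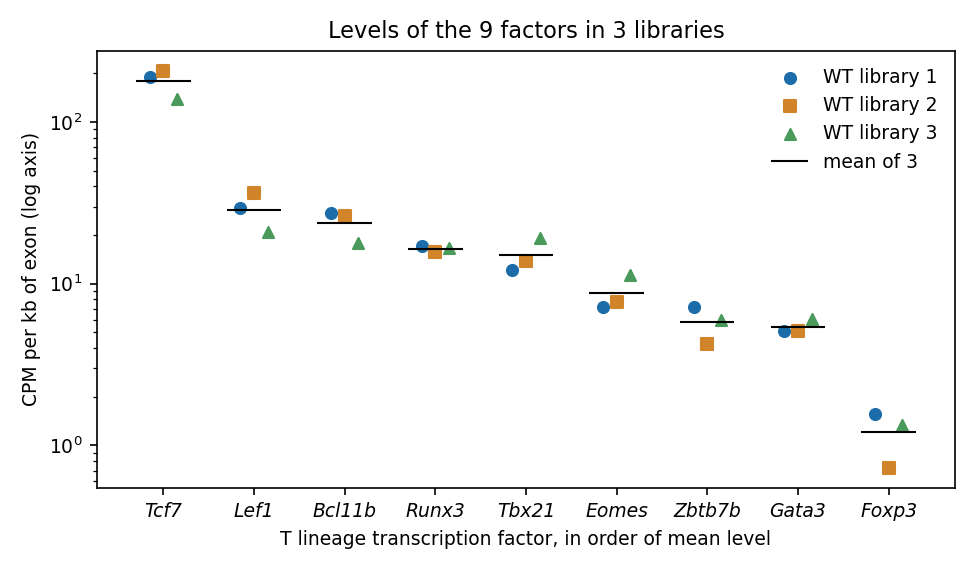
Level of each factor in CPM per kilobase of exon (log axis) in the 3 WT libraries (points), with the mean of 3 (bar), in order of the mean. Tcf7 stands above the other 8 in each library and Foxp3 below them, with means of 179 and 1.21 CPM per kb.

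Tcf7 encodes TCF1, the HMG-box factor that starts the T cell program downstream of Notch (ENSMUSG00000000782, chromosome 11, 52252371 to 52283014, minus strand). It had 9413, 10016 and 6184 counts in WT libraries 1, 2 and 3, which is 498, 546 and 366 CPM. Library 3 was low and the other libraries lay close together.

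Lef1, its HMG-box relative (ENSMUSG00000027985, chromosome 3, 131110471 to 131224356, plus strand), had 4859, 5833 and 3088 counts, or 257, 318 and 183 CPM. Library 2 was highest and library 3 again lowest. Of its exon bases, 13.7% also lie under exons of the antisense gene Gm43352, which had 63, 77 and 56 counts.

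Bcl11b, a zinc finger factor needed to commit precursors to the T lineage (ENSMUSG00000048251, chromosome 12, 107910403 to 108003602, minus strand), had 4198, 3918 and 2435 counts, or 222, 213 and 144 CPM. Libraries 1 and 2 were close and library 3 was lowest, as for Tcf7 and Lef1.

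Tbx21 encodes T-bet, the T-box factor of type 1 helper, cytotoxic and NK cells (ENSMUSG00000001444, chromosome 11, 97098071 to 97115331, minus strand). It had 571, 633 and 807 counts, or 30.2, 34.5 and 47.8 CPM. Eomes, the T-box factor of NK and memory CD8 cells (ENSMUSG00000032446, chromosome 9, 118478212 to 118486132, plus strand), had 563, 591 and 791 counts, or 29.8, 32.2 and 46.9 CPM. Both genes were highest in library 3, where Tcf7, Lef1 and Bcl11b were lowest.

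Runx3, the Runt factor of CD8 T cells and NK cells (ENSMUSG00000070691, chromosome 4, 135120652 to 135177990, plus strand), had 1619, 1435 and 1410 counts, or 85.7, 78.2 and 83.5 CPM. Zbtb7b encodes ThPOK, which holds the CD4 lineage (ENSMUSG00000028042, chromosome 3, 89377644 to 89394776, minus strand), and had 756, 435 and 562 counts, or 40.0, 23.7 and 33.3 CPM. Runx3 was nearly level over the libraries, whereas Zbtb7b was high in library 1 and low in library 2.

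Gata3, which acts in T cell development and directs type 2 helper cells and group 2 innate lymphoid cells (ENSMUSG00000015619, chromosome 2, 9857078 to 9890034, minus strand), had 383, 372 and 405 counts, or 20.3, 20.3 and 24.0 CPM. Foxp3, the forkhead factor of regulatory T cells (ENSMUSG00000039521, chromosome X, 7579676 to 7595243, plus strand), had 136, 61 and 104 counts, or 7.20, 3.32 and 6.16 CPM. Gata3 was nearly level, and Foxp3 was high in library 1 and low in library 2, like Zbtb7b. Of the exon bases of Foxp3, 14.8% lie under exons of Ccdc22 on the other strand, a gene listed at 0 in all 3 libraries, and 6.69% under exons of Flicr on the same strand. The sources used here do not say how reads in such overlaps were counted, so the level of Foxp3 is uncertain.

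Per kilobase of exon, the only scale on which genes are ordered here, Tcf7 had 179 ± 35.4 CPM per kb (SD, n = 3) and ranked 119 of 21839 nuclear protein-coding genes with a length. Lef1 followed at 28.7 ± 7.68, Bcl11b at 23.8 ± 5.26, Runx3 at 16.5 ± 0.773 and Tbx21 at 15.1 ± 3.69 CPM per kb. Eomes had 8.73 ± 2.22, Zbtb7b 5.78 ± 1.47, Gata3 5.41 ± 0.541 and Foxp3 1.21 ± 0.438 CPM per kb. Neighbours in this order were called apart when their log2 ratio within a library had the same sign in all 3 libraries and its mean exceeded 2 SD. No p is given, because the smallest that an exact two-sided sign-flip test allows here is 0.25.

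By this criterion 3 of 8 neighbouring pairs were apart. The log2 ratio was 2.66 ± 0.12 for Tcf7 over Lef1, 0.79 ± 0.04 for Tbx21 over Eomes and 2.22 ± 0.56 for Gata3 over Foxp3. On the union of exons the order of Lef1, Bcl11b, Runx3 and Tbx21 was not resolved, with neighbour ratios of 0.26 ± 0.18, 0.51 ± 0.36 and 0.15 ± 0.35. Nor was that of Eomes, Zbtb7b and Gata3, with ratios of 0.60 ± 0.52 and 0.07 ± 0.38. Exon length bears on the ratio of Tcf7 to Lef1, since the exons of Lef1 span 8788 bases in union but 3656 in its longest transcript, and per kilobase of longest transcript the ratio was 1.48. On longest transcripts the order of the 9 was the same, but the ratio of Lef1 to Bcl11b was 1.53 with an unchanged SD of 0.18, so that this pair was apart on that length and not on the union of exons. Without library 1 the ratio of Runx3 to Tbx21 was -0.015 and that of Zbtb7b to Gata3 -0.14, so the order within these pairs turned.

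The T-box genes Tbx21 and Eomes kept a near constant ratio, whose SD of 0.04 was the smallest of the 10 gene pairs compared. Without length correction their mean log2 ratio was 0.05. Zbtb7b lay below its lineage antagonist Runx3 with a log2 ratio per kb of -1.26, -1.88 and -1.49 in WT libraries 1, 2 and 3. Tbx21 exceeded Gata3, the factor of the opposing helper program, by a log2 ratio per kb of 1.46 ± 0.21 (SD, n = 3).

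Each factor was also set against its paralogues, to see which member of a family these cells carried. By mean CPM per kb, Tcf7, Tbx21, Gata3, Runx3 and Bcl11b were the highest members of their families, whereas Zbtb7b and Foxp3 were not. In the TCF and LEF family Tcf7 and Lef1 stood far above Tcf7l2 and Tcf7l1, the forms common outside lymphocytes, at 1.85 ± 0.262 and 1.96 ± 0.451 CPM per kb. The log2 ratio of Tcf7 to Tcf7l2 was 6.59 ± 0.25.

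Bcl11b exceeded Bcl11a, its B cell and progenitor relative, by 3.06, 2.30 and 1.40 on the log2 scale in WT libraries 1, 2 and 3. Bcl11a had 43.1, 70.3 and 88.9 CPM, so it was lowest in library 1 and highest in library 3, where Bcl11b was lowest. Runx3 exceeded Runx1, the RUNX factor of blood stem cells, by 0.89 ± 0.14 per kilobase of exon. Without length the sign turned, to -0.38, and on longest transcripts the ratio was 0.22, so which of the RUNX genes was higher depends on the length used.

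In the T-box family Tbx2 and Tbx3, which are expressed in lung mesenchyme, lay beside Eomes at 9.68 ± 2.18 and 6.79 ± 0.933 CPM per kb, and Tbx4, a lung mesenchyme factor, at 6.67 ± 2.52. Tbx19 and Tbx22 had no count in the 3 libraries, which allows up to 0.178 CPM in the shallowest. Gata3 was not set apart from Gata2, a factor of mast cells, progenitors and endothelium, since their log2 ratio of -0.24, 1.15 and 0.43 had no common sign. Gata2 itself had 32.5, 12.4 and 24.2 CPM. Zbtb7b lay below the widely expressed Zbtb7a by a ratio of -1.74 ± 0.30, and Foxp3 below Foxp1, a factor of naive lymphocytes, by -4.53 ± 0.60.

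**Figure D2:**
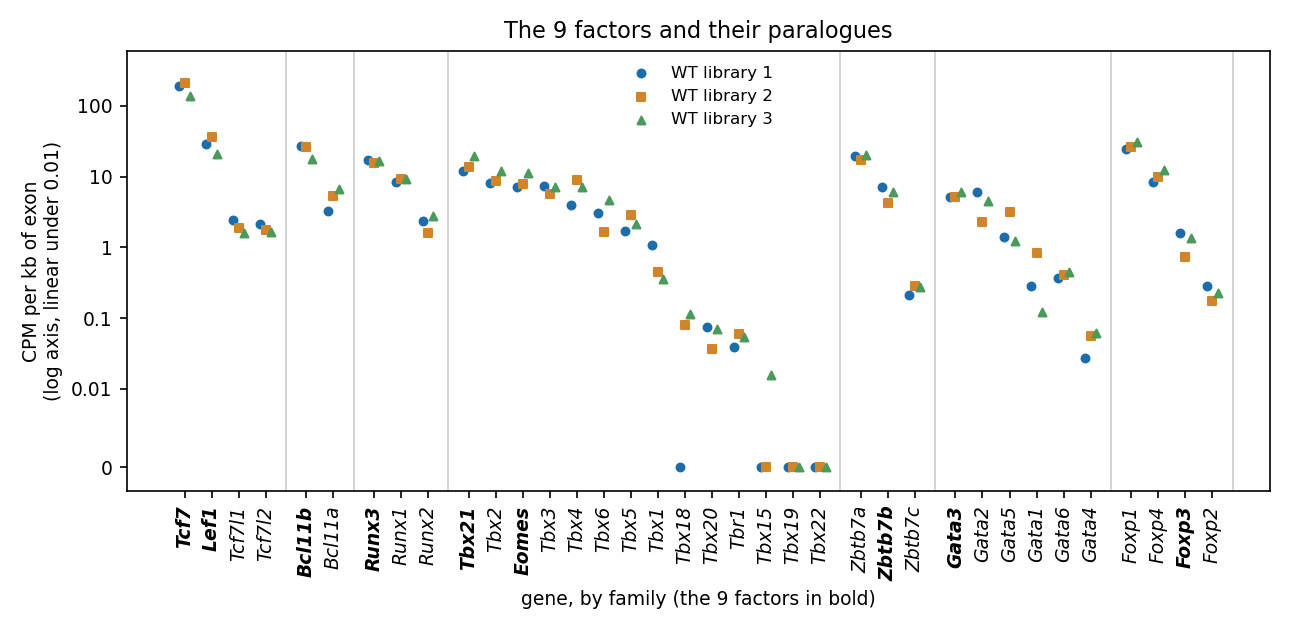
CPM per kilobase of exon (log axis, linear under 0.01) of the 9 factors (bold) and their paralogues in the 3 WT libraries (points), by family. Tcf7 and Lef1 lie above Tcf7l1 and Tcf7l2, Foxp3 lies below Foxp1 and Foxp4, and Tbx19 and Tbx22 are at 0.

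Whether a gene varied between libraries was tested by chi-square on its counts, given TMM-scaled library sizes and with Benjamini-Hochberg adjustment over all genes. The test asks whether counts differed by more than counting error and compares these libraries, not conditions. Of the 9 factors, 8 varied, against a background of 70.0% of 23317 genes tested and 77.1% of protein-coding genes with total counts in the range of the 9. A share of 8 in 9 is thus not set apart from other genes. Gata3 did not vary detectably (adjusted p = 0.541), although with plain library totals its adjusted p was 0.0337. Runx3 varied little in size, with a coefficient of variation (CV) of 7.98% after TMM scaling, and Gata3 had 4.21%. The other 7 factors had 18.0% to 37.7%, above the median of 12.6% over the 7883 protein-coding genes that averaged 10 CPM or more.

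The calls of 4 factors depended on a library. Without library 3 the adjusted p was 0.133 for Tbx21 and 0.538 for Eomes. Without library 2 it was 0.0626 for Foxp3, and without library 1 it was 0.719 for Runx3. Tcf7, Lef1, Bcl11b and Zbtb7b kept an adjusted p of at most 0.0025 whichever library was left out.

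The directions fell into groups. After TMM scaling, Tcf7, Lef1, Bcl11b and Runx3 varied and were lowest in library 3, as were 19.3% of all genes tested; by CPM Runx3 was lowest in library 2. Tbx21 and Eomes varied and were highest in library 3, as were 19.9% of genes. Zbtb7b and Foxp3 varied, were highest in library 1 and lowest in library 2, as were 16.0% of genes. The spans between the highest and the lowest library were 1.49-fold for Tcf7, 1.74-fold for Lef1, 1.54-fold for Bcl11b, 1.58-fold for Tbx21 and 1.57-fold for Eomes by CPM. For Zbtb7b the span was 1.69-fold and for Foxp3 2.17-fold.

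**Figure D3:**
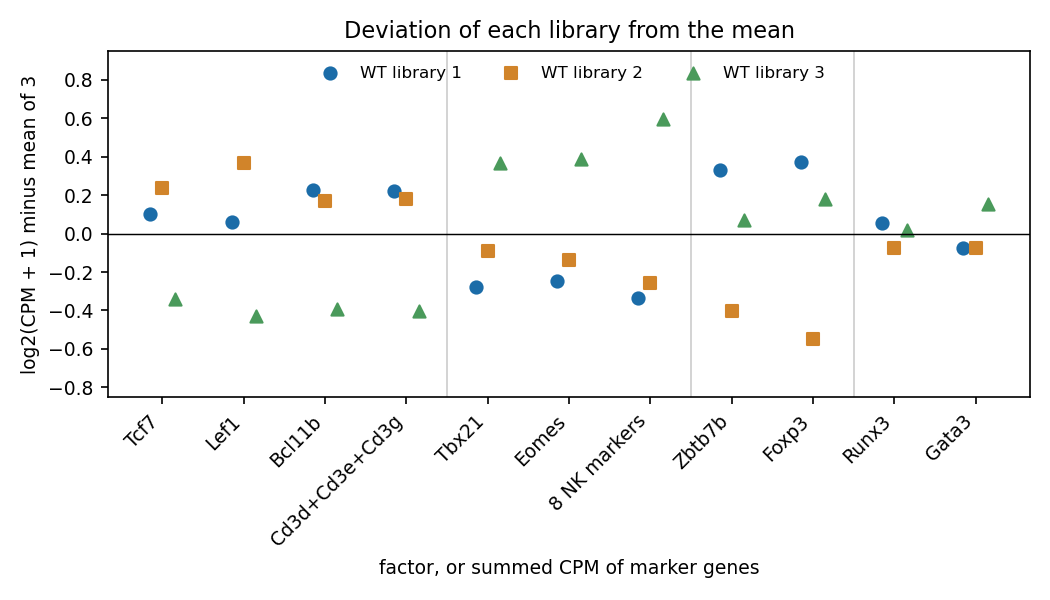
Deviation of log2(CPM + 1) from the mean of the 3 WT libraries for each factor and for the summed CPM of the CD3 genes and of 8 NK cell markers (points, by library). Library 3 lies lowest for Tcf7, Lef1, Bcl11b and the CD3 sum and highest for Tbx21, Eomes and the NK sum, and library 2 lies lowest for Zbtb7b and Foxp3.

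Genes of T cells moved with the first group. Over all genes tested, 70.0% varied, and 19.3% varied and were lowest in library 3. Of 14 genes of the T cell receptor complex and surface, 12 varied and were lowest in library 3 after TMM scaling, and 11 were lowest there by CPM. Cd3e, a signalling chain of the T cell receptor, had 153, 147 and 98.1 CPM. The coreceptor genes Cd4, Cd8a and Cd8b1 and Cd40lg, which encodes CD40 ligand, 4 of 4, varied and were lowest in library 3. Cd4 had 125, 137 and 122 CPM and Cd8b1 96.5, 120 and 60.2 CPM. Of 8 genes of naive T cells that TCF1 and LEF1 help maintain, 8 varied and 6 were lowest in library 3. The interleukin 7 receptor Il7r had 294, 288 and 224 CPM.

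Counted per 100 counts of the CD3 genes Cd3d, Cd3e and Cd3g, Bcl11b was even across libraries, and Tcf7 and Lef1 were less spread than by CPM. Bcl11b had 61.6, 61.0 and 61.9 counts per 100 CD3 counts in WT libraries 1, 2 and 3, a CV of 0.716% against 22.1% by CPM. Counting error alone was 1.96% to 2.58% for each of these ratios, so the libraries did not differ beyond it. Tcf7 had 138, 156 and 157, with a CV of 7.07% against 19.8% by CPM, and Lef1 71.3, 90.9 and 78.5, with a CV of 12.3% against 26.7%. Counting error was 1.59% to 2.04% for the ratios of Tcf7 and 1.81% to 2.40% for those of Lef1, so both still differed between libraries by more than it. For the other 6 factors the CV per CD3 count exceeded that of the CPM. With the 14 T cell genes as the denominator, the CVs of Bcl11b, Tcf7 and Lef1 were 11.3%, 8.79% and 16.9%, so the closeness of Bcl11b is to the CD3 sum. It does not hold for each CD3 gene. Between the highest and the lowest library by CPM, Bcl11b spanned 1.54-fold, Cd3d 1.26-fold, Cd3e 1.56-fold and Cd3g 1.69-fold. Cd3e was also the gene nearest to Bcl11b in profile among 7883 genes searched, at a Euclidean distance of 0.0142 between centred log2(CPM + 1) values over 3 libraries, which is a weak measure with so few libraries.

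Genes of cytotoxic lymphocytes moved with Tbx21 and Eomes. Over all genes tested, 70.0% varied, and 19.9% varied and were highest in library 3. Of 12 type 1 effector genes that T-bet and EOMES are known to regulate, 12 varied and 10 were highest in library 3. The granzyme Gzma had 148, 225 and 359 CPM, perforin, Prf1, 49.9, 69.8 and 94.3 CPM, and the chemokine Ccl5 353, 307 and 515 CPM. The exceptions were Cxcr3, at 13.5, 4.25 and 6.16 CPM, and Gzmk, at 7.99, 2.23 and 1.48 CPM. Of 9 NK cell markers, Eomes among them, 8 varied and were highest in library 3. The NK receptor Ncr1 had 33.1, 44.6 and 68.4 CPM. All 9 B cell markers also varied and were highest in library 3, so the direction is not particular to NK cells.

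Per 100 counts of the 8 NK markers other than Eomes, a denominator chosen after its values were seen, Tbx21 had 14.3, 15.4 and 11.8 counts and Eomes 14.1, 14.4 and 11.6. Their CVs were 13.3% and 11.5%, against 24.5% and 25.5% by CPM. Per 100 CD3 counts the same genes had 8.38, 9.86 and 20.5 counts for Tbx21 and 8.27, 9.21 and 20.1 for Eomes, with library 3 far above the others. Tcf7, Lef1 and Bcl11b were spread over 2.69-fold, 3.14-fold and 2.94-fold per NK marker count. The part of cell composition in these differences was not tested.

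**Figure D4:**
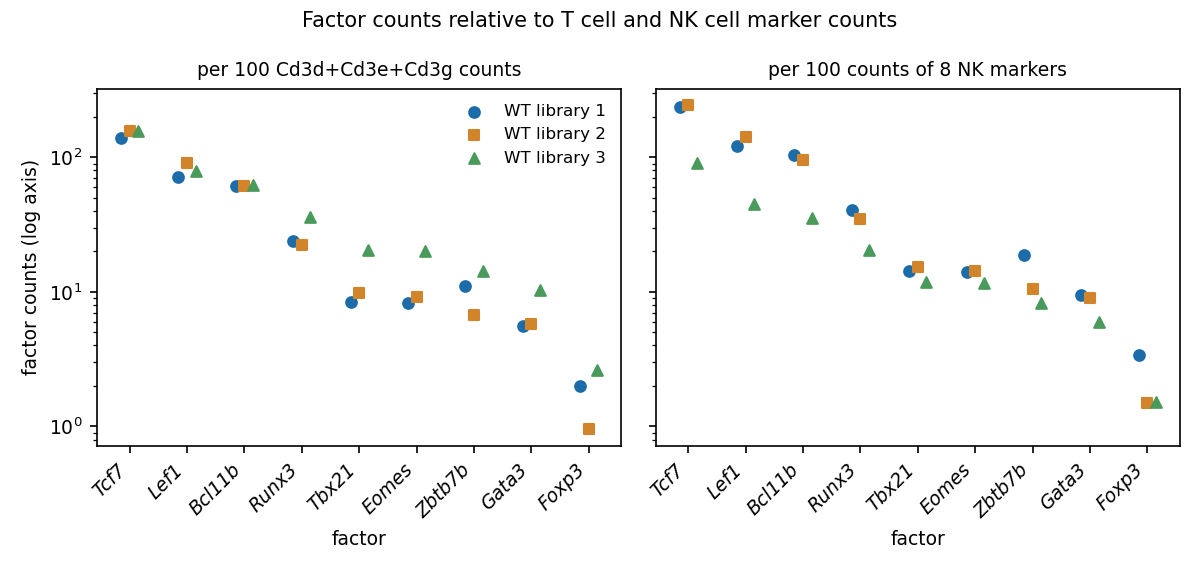
Counts of each factor per 100 counts of Cd3d, Cd3e and Cd3g (left) and per 100 counts of 8 NK cell markers (right), on a log axis, in the 3 WT libraries (points). Bcl11b lies at 61.0 to 61.9 on the left, and Tbx21 and Eomes lie at 11.6 to 15.4 on the right.

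Lists were also examined for Gata3 and Foxp3, but not for genes tied to Runx3 or Zbtb7b. Of 10 type 2 genes that GATA3 controls, 5 averaged 1 CPM or more, near the 59.4% of all nuclear protein-coding genes that did, and 0 averaged 10 CPM, against 35.8% of those genes. The cytokine receptor Il9r had 4.50, 5.45 and 8.06 CPM and Il17rb 2.01, 2.83 and 4.21 CPM. The type 2 cytokine genes Il5 and Il13 had 2 counts each, all in library 3, which is fewer than the 3 counts that a gene listed at 0 could still have. Of 12 genes of regulatory T cells, 9 varied, against 70.0% of all genes tested. Of these 9, 3 had the order of Foxp3, highest in library 1 and lowest in library 2, which 16.0% of all genes tested had. By CPM alone, 2 of the 12 had that order. The receptor Il2ra had it at 16.6, 5.50 and 9.72 CPM, and the checkpoint receptor Ctla4 did not, at 31.1, 49.8 and 53.6 CPM.

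Some markers of other cell types shared the order of Zbtb7b and Foxp3. All 9 endothelial markers varied, were highest in library 1 and lowest in library 2, as were 6 of 11 myeloid and 6 of 10 epithelial markers, against 16.0% of all genes tested. By CPM, without TMM scaling, it was 8 of the 9 endothelial markers. The summed CPM of the endothelial list was 767, 437 and 576 in WT libraries 1, 2 and 3, that of the myeloid list 933, 332 and 429, and that of the epithelial list 14875, 2991 and 8056. Single genes carried the last 2 sums, with Lyz2, lysozyme, at 704, 189 and 235 CPM and Scgb1a1, the club cell secretoglobin, at 13192, 2632 and 7641 CPM. The median log2(CPM + 1) of the myeloid list was 3.90, 4.05 and 4.09 and so was lowest in library 1, unlike its sum. Lists drawn up for lymphoid cells also held this order, with 5 of 12 effector and exhaustion factors. So did 4 of 9 factors of other helper lineages and 3 of 7 markers of group 2 innate lymphoid cells. These lists are not exclusive to lymphoid cells, since Hopx is on both the effector and the epithelial list. The order was absent among the called genes of the T cell receptor and surface, fibroblast and contractile lists and of the list of coreceptors and Cd40lg. It was also absent among those of the B cell list, the naive T cell genes and the factors of naive and quiescent lymphocytes. The genes nearest in profile were Slco2a1, a prostaglandin transporter, for Foxp3 and Cyb5r3, a reductase, for Zbtb7b. The part of these cells in the levels of Zbtb7b and Foxp3 was not tested.

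Other factors that act early in T cells and innate lymphoid cells were present with the 9. Of 16 such genes, all 16 averaged 10 CPM or more and 7 averaged 100 or more, against 35.8% and 5.89% of nuclear protein-coding genes. After TMM scaling 15 varied, 7 of them lowest and 3 highest in library 3. The shares over all genes tested were 70.0%, 19.3% and 19.9%. Their direction depended on the scaling, since 3 of the 16 were lowest in library 3 by CPM and 8 after TMM scaling. The ETS factor Ets1 had 769, 913 and 877 CPM, the chromatin organiser Satb1 478, 614 and 507 CPM and Ikaros, Ikzf1, 293, 301 and 278 CPM. Gfi1, a repressor with the fewest counts of the list, had 8.31, 12.5 and 13.7 CPM. Of 6 factors of naive and quiescent lymphocytes, 6 averaged 100 CPM or more, and Foxp1 had 336, 357 and 420 CPM. Many of these genes are also expressed in B cells and endothelium.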

How the data were processed

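Total RNA was extracted with an on-column DNase step and libraries were made with a stranded SMARTer kit, per the labels' protocols. The deposited values are whole-number read counts per Ensembl gene, not normalized. Per the submitters' processing notes, Trimmomatic 0.38, STAR 2.6.1d, featureCounts 1.6.3 and DESeq2 1.18.1 were used. The notes name human builds, whereas the gene IDs are mouse; 42754 of 48349 IDs shared with GENCODE M21 (GRCm38) had identical coordinates, so coordinates are those of the table. The count columns are named as controls and were assigned to the WT libraries by their number.

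CPM used library totals. Log values used a pseudocount of 1 and ratios between genes an added count of 0.5, per kilobase of the union of exons. TMM factors came from edgeR 4.0.16 and alternative size factors from DESeq2 1.42.0. The chi-square test took genes with at least 10 counts in total and an adjusted threshold of 0.05. On simulated counts for the 3 libraries with counting error alone, it recovered 73.1%, 98.5% and 100% of genes changed by 1.5-fold, 2-fold and 4-fold in 1 library. The changed genes were drawn from those with at least 100 counts in total, so these shares do not cover genes with fewer. In that simulation 9 of 190 calls were unchanged genes, of 23306 tested. Between pairs of libraries 38.2% to 56.8% of genes differed, so none was a duplicate of another.

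Named genes were the 9 factors, paralogues, the 3 highest and the lowest genes of each list, overlapping genes and the gene nearest in profile. Prf1, Cxcr3, Il13, Il2ra, Hopx, Klrg1, Il1rl1, Areg and the spans of Cd3d and Cd3g fall outside this rule. Like the motifs, they were chosen after their values were seen. Not every gene the rule names is printed. The members and lists were chosen with earlier results of these data known. Some genes that the rule names are not reported here.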

Additional observations from a re-analysis of the deposited data

How the results depend on the processing

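The median log2(CPM + 1) of the 9 factors was 5.37 ± 0.23 and, with nuclear protein-coding counts as the denominator, 6.11, since that total is smaller; other scalings and a pseudocount of 0.1 moved it by less than its SD. Without length correction the log2 ratios were 0.91 for Tcf7 to Lef1, 0.049 for Tbx21 to Eomes, 0.78 for Tbx21 to Gata3, 4.84 for Tcf7 to Tcf7l2 and -6.12 for Foxp3 to Foxp1, and that of Runx3 to Runx1 reversed to -0.38. On longest transcripts they were 1.48, 0.57, 1.15, 5.43, -5.22 and 0.22 for the same pairs, and 1.12 for Bcl11b to Bcl11a. These moves come from the lengths alone. Adding 5 counts, or taking exons inside the deposited gene span (chosen after seeing the data), moved none of the 10 ratios by more than its SD. The number of factors varying between libraries was 9 with library totals, 8 with DESeq2 size factors and 8 without a filter on low counts. The shares of all genes tested that varied were then 72.1%, 70.1% and 53.3%. Without library 1, 2 or 3 the number was 7, 7 and 6, against 38.2%, 53.6% and 56.8% of all genes tested. The number with a lower CV per CD3 count than by CPM was 3 to 4 when a library was left out. With 3 libraries, the SDs are themselves imprecise. No paired analysis was possible because the labels give a single group.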

Other observations

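Factors of effector and other helper programs were present at levels that ranged widely, and which cells their counts came from was not tested. Of 12 effector and exhaustion factors, 9 averaged 10 CPM or more, against 35.8% of nuclear protein-coding genes. The genes with most counts were the orphan receptor Nr4a1 at 299 ± 77.3 CPM, the zinc finger factor Zeb2 at 188 ± 20.8 CPM and Nfatc1 at 176 ± 9.03 CPM (SD, n = 3), and the resident memory factor Zfp683 had the fewest at 1.89 ± 1.89 CPM. Of 9 factors of other helper lineages, 7 averaged 10 CPM or more, among them Stat6 at 168 ± 16.9 CPM, Zbtb16, the factor of NKT cells, at 64.5 ± 9.96 CPM and Rora at 63.4 ± 11.5 CPM. Of 7 type 17 genes, 4 averaged 1 CPM or more, near the share of 59.4% among nuclear protein-coding genes. Of 7 markers of group 2 innate lymphoid cells, 4 averaged 10 CPM or more, namely Rora, Icos, Kit and Klrg1. Rora and Icos are also expressed in T cells, and which cells the counts of Kit and Klrg1 came from was not tested. Il1rl1 had 2.51 ± 1.67 CPM, Areg 1.03 ± 0.577 and Arg1 0.803 ± 0.606.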
